A study of Homo sapiens with 15 samples.

Results

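The genes described here encode the acyltransferases and lipin phosphatases that build triglyceride: GPAM, AGPAT1, AGPAT2, AGPAT4, AGPAT5, LPIN1, LPIN2, LPIN3, DGAT1 and DGAT2. They were taken by their gene symbols, 10 of the 20806 gene entries in each count table, and all 10 passed the filter on low counts that left 14246 genes for testing. RNA sequencing covered 15 libraries of C4-2 cells, a castration-resistant human prostate cancer line, 3 from each of 5 lines. Scramble is the control line and in KO the PNPLA2 gene, which encodes adipose triglyceride lipase (ATGL), was knocked out. The 3 addback lines carry the same knockout plus an ATGL protein: the wild type (KO_WT), the S404A mutant (KO_S404A), or the S47A mutant (KO_S47A), which the submitters describe as unable to carry out lipolysis. All lines were grown in RPMI1640 medium with 5 mM glucose and 5% dialyzed fetal bovine serum. The sources used here do not give whether a line is 1 clone or a pool, or which promoter drives the addback proteins. Nor do they state that the 3 libraries of a line came from separate cultures, so the p-values reflect the spread among the libraries and nothing wider, and that spread may be technical.

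Triglyceride is made in a chain of acyl transfers onto glycerol 3-phosphate. A glycerol-3-phosphate acyltransferase (GPAT) adds the first fatty acid, a 1-acylglycerol-3-phosphate acyltransferase (AGPAT) adds the next to form phosphatidic acid, a lipin removes the phosphate to leave diacylglycerol, and a diacylglycerol acyltransferase (DGAT) adds the last fatty acid. The chain runs opposite to the reaction of ATGL, which takes the first fatty acid off stored triglyceride, and it shares phosphatidic acid and diacylglycerol with membrane phospholipid synthesis. In bulk RNA, fewer cells expressing a gene and less of its RNA per cell cannot be told apart.

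AGPAT4 was called against Scramble in KO and in the addback lines, and LPIN1 in the addback lines only. AGPAT2 was not called, but each of its addback libraries lay above each Scramble library. The 250 bases before the annotated starts of AGPAT4, LPIN1 and AGPAT2 are shown so that the letters can be read beside the values. These bases are from RefSeq on GRCh38.p14, printed 5′ to 3′ on the strand of the gene, with capitals marking the motifs searched on both strands: CACGTG (the E-box), CCAAT (the CCAAT box), TCACNCCAC (a sterol regulatory element) and GGGCGG (the GC box). LPIN1 has 3 annotated starts, and counts per gene do not show which of them was used. The AGPAT4 window is chr6:161274062-161274311 (minus strand), that of AGPAT2 is chr9:136687458-136687707 (minus strand), and those of LPIN1 are chr2:11677294-11677543, chr2:11724065-11724314 and chr2:11746382-11746631 (plus strand).
AGPAT4: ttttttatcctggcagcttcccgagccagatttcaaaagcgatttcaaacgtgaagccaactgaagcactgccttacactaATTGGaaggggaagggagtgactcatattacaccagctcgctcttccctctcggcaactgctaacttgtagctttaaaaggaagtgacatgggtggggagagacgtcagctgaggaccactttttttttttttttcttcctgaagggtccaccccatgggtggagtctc
AGPAT2: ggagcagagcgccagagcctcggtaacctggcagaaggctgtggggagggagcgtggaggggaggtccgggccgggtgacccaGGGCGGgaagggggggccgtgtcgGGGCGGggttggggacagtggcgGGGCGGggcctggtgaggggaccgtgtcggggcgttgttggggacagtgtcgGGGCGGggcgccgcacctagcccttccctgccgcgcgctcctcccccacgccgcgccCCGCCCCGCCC
LPIN1, upstream start: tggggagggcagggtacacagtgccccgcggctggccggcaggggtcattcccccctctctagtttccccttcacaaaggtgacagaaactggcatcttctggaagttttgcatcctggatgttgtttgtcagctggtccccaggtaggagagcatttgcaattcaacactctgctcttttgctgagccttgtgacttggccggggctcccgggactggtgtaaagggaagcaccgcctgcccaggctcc
LPIN1, middle start: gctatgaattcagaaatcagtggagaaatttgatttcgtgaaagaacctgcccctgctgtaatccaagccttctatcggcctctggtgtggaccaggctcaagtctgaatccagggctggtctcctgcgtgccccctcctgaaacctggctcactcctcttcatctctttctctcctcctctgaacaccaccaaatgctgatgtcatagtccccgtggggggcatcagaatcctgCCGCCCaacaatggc
LPIN1, downstream start: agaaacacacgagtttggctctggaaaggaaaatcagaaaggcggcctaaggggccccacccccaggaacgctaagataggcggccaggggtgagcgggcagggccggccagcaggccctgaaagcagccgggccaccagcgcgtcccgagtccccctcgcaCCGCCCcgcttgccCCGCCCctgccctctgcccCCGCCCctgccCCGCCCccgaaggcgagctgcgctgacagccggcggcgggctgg

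The AGPAT4 window held 1 CCAAT box, at position -169 from the start and on the opposite strand, where it reads ATTGG, and no other motif searched, with a GC content of 47.6%. The AGPAT2 window had a GC content of 77.6% and held 6 GC boxes, of which the 2 nearest the start overlap. At LPIN1 the upstream start had none of the 4 motifs (58.4% GC), the middle start had 1 GC box (53.2% GC) and the downstream start had 4 GC boxes (72.4% GC). Of 35116 promoter windows of this length, 32.0% held a CCAAT box, 42.6% a GC box, 6.34% an E-box and 0.883% the sterol regulatory element. A match describes the letters and is not a binding site. Windows for 6 of the 10 genes were analysed, 13 windows in all.

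The knocked-out gene was checked first. PNPLA2 stood at 48.9 ± 4.76 CPM (counts scaled to a common library size; mean ± SD, n = 3) in Scramble and at 11.3 ± 1.99 in KO. It stood at 220 ± 18.1 in KO_WT, 129 ± 30.6 in KO_S47A and 413 ± 98.3 in KO_S404A, and each of these 4 lines differed from Scramble (edgeR adjusted p of 0.00131 or less). Depth was 40846694 to 64345775 counts in genes per library. The 7 prostate luminal markers were all detected, with summed levels of 7026 to 7421 CPM in the Scramble libraries and 4771 to 6791 in the other 12. Of 6 adipocyte markers 5 were detected, at no more than 0.396 CPM summed, and ADIPOQ was at 0. Stromal markers (4 of 5 detected, PDGFRA at 0) summed to 9.86 to 14.7 CPM in Scramble, 12.4 to 14.6 in KO, 13.0 to 17.2 in KO_WT, 15.6 to 23.2 in KO_S47A and 15.2 to 22.2 in KO_S404A. Nearly all of that was COL1A1. Endothelial and blood markers (4 of 5 detected, CD3E at 0) summed to 5.06 to 14.7 CPM, nearly all of it VWF. The luminal sums of the other 12 libraries lay below those of Scramble, and the stromal sums lay above those of Scramble in KO_S47A and KO_S404A but not in KO or KO_WT, whose ranges overlapped it. The part of these sums in the differences of AGPAT4 and LPIN1 was not tested.

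Per kilobase of transcript, AGPAT2 was the most abundant of the 10 RNAs, at 24.8 ± 4.56 CPM per kilobase (SD over the 15 libraries). AGPAT5 followed at 14.4 ± 2.94 and AGPAT1 at 12.1 ± 1.37, and these neighbours lay within their spread over libraries. DGAT2 (9.95 ± 2.22), LPIN1 (8.80 ± 1.56), GPAM (6.75 ± 0.417), LPIN2 (6.71 ± 0.810) and DGAT1 (6.53 ± 0.411) formed the middle of the order. GPAM, LPIN2 and DGAT1 did not differ from each other beyond their spread. LPIN3 was lower, at 2.25 ± 0.395, and AGPAT4 was the lowest, at 0.249 ± 0.0974 CPM per kilobase, a level above that of 12.4% of the genes tested. AGPAT4 was also the most variable: its highest library was 4.92 times its lowest, while the highest library of GPAM was 1.24 times its lowest. The coefficient of variation over the 15 libraries was 39.1% for AGPAT4, 6.17% for GPAM and 6.29% for DGAT1, and between 11.4% and 22.3% for the other 7 genes. Only 3.44% of the genes tested had a smaller coefficient of variation than GPAM, and 3.79% a smaller one than DGAT1.

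**Figure D1:**
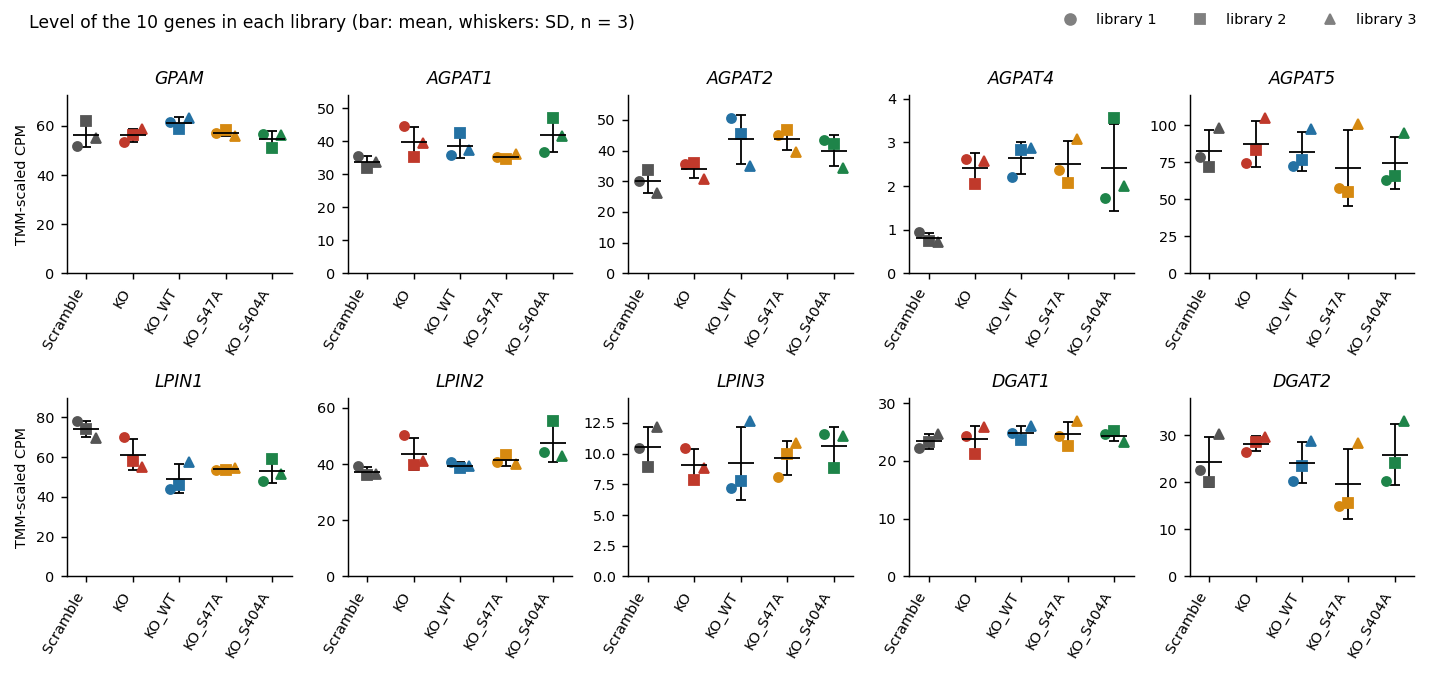
Level of each of the 10 genes (vertical axis, TMM-scaled CPM, starting at 0) in the 3 libraries of each line (symbols by library number), with the mean as a bar and the SD as whiskers (n = 3). The 3 Scramble libraries of AGPAT4 sit between 0.724 and 0.951 CPM, below all 12 others, and those of LPIN1 sit between 69.8 and 78.1 CPM with only 1 KO library, at 70.1, reaching into their range.

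Of the enzymes of the first step, GPAM, a mitochondrial GPAT, varied little. It stood at 51.9, 62.0 and 55.2 CPM in Scramble libraries 1, 2 and 3, and at 53.3, 56.3 and 58.7 in KO. The addback libraries gave 61.7, 58.6 and 63.2 CPM for KO_WT, 57.0, 58.4 and 55.7 for KO_S47A, and 56.6, 50.9 and 56.4 for KO_S404A. All 4 other lines overlapped Scramble. The KO minus Scramble difference was -0.01 on the log2 scale (95% interval -0.19 to 0.17), and no comparison of GPAM between lines was called. GPAM made up 22.2% to 25.5% of the CPM per kilobase of the 4 GPAT genes as means per line. Most of the rest was GPAT4, a GPAT of the endoplasmic reticulum, at 72.2% to 76.8%. GPAT3 was at 0.820% to 2.25% and GPAT2 at 0.0867% to 0.146%.

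At the AGPAT step the least abundant gene changed most. AGPAT4, one of the AGPAT enzymes, stood at 0.951, 0.746 and 0.724 CPM in Scramble. In KO the 3 libraries gave 2.63, 2.04 and 2.58 CPM. The KO_WT libraries gave 2.22, 2.82 and 2.87 CPM, those of KO_S47A 2.37, 2.06 and 3.09, and KO_S404A 1.72, 3.56 and 1.99. Each of these 12 libraries was above each Scramble library. The Scramble values rest on 36 to 38 counts per library and the others on 102 to 237 counts. AGPAT4 rose by 1.58 (SE 0.29, 95% interval 0.97 to 2.20) on the log2 scale in KO, 3.00-fold, with an adjusted p of 0.00752 (edgeR quasi-likelihood test, Benjamini-Hochberg adjustment over all genes tested). Against the same Scramble libraries it rose by 1.71 in KO_WT (SE 0.29, adjusted p = 0.00431), 1.64 in KO_S47A (SE 0.29, adjusted p = 0.00521) and 1.59 in KO_S404A (SE 0.29, adjusted p = 0.0066). Library by library, the KO value was 2.77, 2.73 and 3.57 times that of the Scramble library of the same number. Among the 4 called rises, that in KO_S404A was lost when only its 3 libraries and the 3 Scramble libraries were fitted (adjusted p = 0.119).

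No call separated AGPAT4 in the knockout with ATGL added back from the knockout alone. The difference from KO was 0.13 in KO_WT (95% interval -0.45 to 0.71), 0.05 in KO_S47A (-0.52 to 0.63) and 0.01 in KO_S404A (-0.57 to 0.58), with adjusted p-values of 0.856, 0.919 and 0.996. Differences of up to those bounds are not excluded, but none of the 3 intervals reaches a fall as large as the rise from Scramble to KO. In the edgeR test for any difference among the 5 lines, AGPAT4 was the only one of the 10 genes called (adjusted p = 0.0215), and 2.37% of all genes tested were called. That call was lost when any 1 Scramble library was left out, with adjusted p-values of 0.0919, 0.157 and 0.157 without library 1, 2 and 3. By Pearson's r of log2 CPM over the 15 libraries, the genes whose pattern was most like that of AGPAT4, of 12092 compared, included an entry with no symbol (r = 0.93) and CCDC88A (r = 0.92). CCDC88A went from 15.3 CPM in Scramble to 22.8 in KO (log2 difference 0.57, adjusted p = 0.0157). All 15 libraries share the line means and library numbers, so these correlations are descriptions.

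AGPAT2, whose loss in people causes a generalized lipodystrophy, lay higher in every addback library than in every Scramble library. It stood at 30.3, 33.6 and 26.2 CPM in Scramble and at 35.5, 36.0 and 30.6 in KO, which overlap. KO_WT gave 50.6, 45.5 and 34.9 CPM, KO_S47A 45.2, 46.6 and 39.6, and KO_S404A 43.6, 42.2 and 34.3. In each line library 3 was the lowest of the 3. Against Scramble the log2 difference was 0.54 in KO_WT (SE 0.14, adjusted p = 0.0593), 0.55 in KO_S47A (SE 0.14, adjusted p = 0.0539) and 0.42 in KO_S404A (SE 0.14, adjusted p = 0.159), none of them called. With the replicate number as a block, the differences in KO_WT (0.53, SE 0.08, adjusted p = 0.00061) and KO_S47A (0.55, SE 0.08, adjusted p = 0.000411) were called. DESeq2 without a block also called them, with adjusted p-values of 0.0163 and 0.0147. Both settings called more of all genes than the main fit, which called 3.47% and 3.82% in these 2 comparisons. The block called 10.0% and 19.5% of all genes, and DESeq2 called 6.09% and 7.67%. The KO minus Scramble difference was 0.18 (95% interval -0.13 to 0.49, adjusted p = 0.711) and was not called with the block either.

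AGPAT1, an AGPAT of the endoplasmic reticulum, stood at 35.5, 31.9 and 33.7 CPM in Scramble. Its highest libraries were 44.6 in KO, 42.6 in KO_WT and 47.01 in KO_S404A, while the KO_S47A libraries lay between 34.7 and 36.0. The largest difference from Scramble was 0.31 in KO_S404A (95% interval 0.07 to 0.55, adjusted p = 0.173), not called. In the GENCODE v29 annotation, exons on the opposite strand from the read-through gene PPT2-EGFL8 overlap 29.9% of the AGPAT1 exonic bases, and the sources used here do not give the strand setting of the counting. AGPAT5, a mitochondrial AGPAT, showed no called difference from Scramble: it averaged 82.8 ± 13.8 CPM there, against 87.4 ± 15.7 for KO, 82.1 ± 13.3 for KO_WT, 71.1 ± 25.7 for KO_S47A and 74.3 ± 17.5 for KO_S404A. Library 3 was the highest of the 3 in every line.

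Measured per kilobase and as the mean of each line, AGPAT2 held the largest share of the 5 AGPAT genes, AGPAT3 included, although in Scramble library 3 AGPAT5 held 29.6% and AGPAT2 28.1%. The mean AGPAT2 share was 33.0 ± 4.79% in Scramble, against 33.9 ± 3.58% for KO, 41.6 ± 6.38% for KO_WT, 44.3 ± 5.76% for KO_S47A and 38.5 ± 5.82% for KO_S404A (SD, n = 3). AGPAT4 held 0.158 ± 0.0250% in Scramble and 0.410% to 0.451% as means in the other lines, and no more than 0.574% in any library. AGPAT3 was not called in any of the 10 comparisons between lines.

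**Figure D2:**
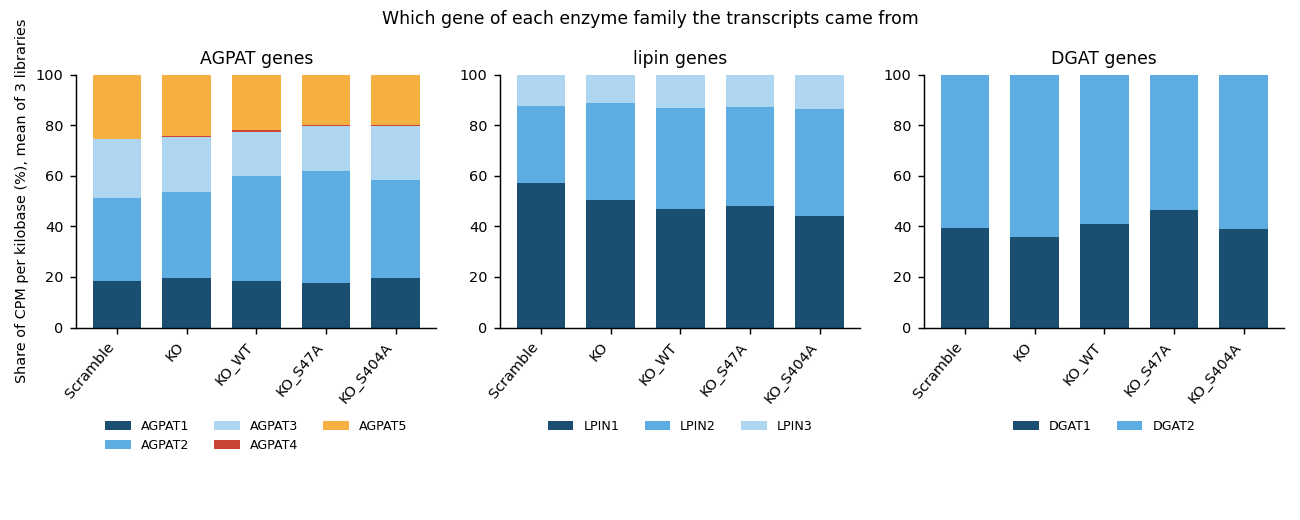
Mean share of each gene (vertical axis, percent of CPM per kilobase, n = 3 libraries a line) in its enzyme family, for the AGPAT genes, the lipins and the DGAT genes. The LPIN1 share is 57.1% in Scramble and 44.2% to 50.5% in the other lines, the LPIN2 share is 30.5% in Scramble and 38.2% to 42.1% in the others, and AGPAT4 is the barely visible band of 0.158% to 0.451%.

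Lipin 1, the product of LPIN1, is a phosphatidic acid phosphatase that also acts in the nucleus as a transcriptional coactivator. LPIN1 stood at 78.1, 74.3 and 69.8 CPM in Scramble and at 70.1, 58.2 and 55.3 in KO, where library 1 reached into the Scramble range. KO_WT gave 44.0, 46.3 and 57.4 CPM, KO_S47A 53.3, 53.7 and 54.7, and KO_S404A 48.0, 58.9 and 51.6. All 9 addback libraries were below all 3 Scramble libraries. LPIN1 fell by 0.59 on the log2 scale in KO_WT (SE 0.12, adjusted p = 0.0129), by 0.46 in KO_S47A (SE 0.12, adjusted p = 0.0481) and by 0.49 in KO_S404A (SE 0.12, adjusted p = 0.0414), to 0.665, 0.728 and 0.713 of the Scramble level. In KO the difference was -0.28 (95% interval -0.53 to -0.02, adjusted p = 0.335), not called. The addback lines did not differ from KO by a called amount: the differences were -0.31 in KO_WT (95% interval -0.57 to -0.06, adjusted p = 0.625), -0.18 in KO_S47A (-0.44 to 0.07, adjusted p = 0.390) and -0.21 in KO_S404A (-0.47 to 0.04, adjusted p = 0.898). It is therefore not shown that LPIN1 differs between the knockout with and without ATGL.

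Each of the 3 LPIN1 calls was lost when certain single libraries were left out. The KO_WT call was lost without Scramble library 1 (adjusted p = 0.0529), without KO_WT library 1 (0.0677) or 2 (0.0610), and in the fit of these 2 lines alone (0.0533). The KO_S47A call was lost without any 1 Scramble library (adjusted p of 0.143, 0.104 and 0.0945 without library 1, 2 and 3) and without KO_S47A library 1 (0.148) or 2 (0.133). The KO_S404A call was lost in the same way (0.114, 0.0895 and 0.0736 without Scramble library 1, 2 and 3), without KO_S404A library 1 (0.126) or 3 (0.0911), and in the fit of the 2 lines alone (0.137). Over all alternatives run, the log2 difference stayed between -0.75 and -0.52 for KO_WT, -0.51 and -0.43 for KO_S47A, and -0.59 and -0.42 for KO_S404A. The test for any difference among the 5 lines gave LPIN1 an adjusted p of 0.0601.

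LPIN2, the lipin mutated in Majeed syndrome, had no called difference. It stood at 39.2, 36.1 and 36.5 CPM in Scramble and at 50.2, 39.5 and 41.01 in KO. The addback libraries gave 40.6, 38.5 and 39.3 CPM for KO_WT, 40.6, 43.3 and 39.9 for KO_S47A, and 44.1, 55.2 and 42.8 for KO_S404A. Every KO, KO_S47A and KO_S404A library was above every Scramble library. The largest difference from Scramble was 0.35 in KO_S404A (95% interval 0.11 to 0.59, adjusted p = 0.125). LPIN3, the third lipin, stood between 7.20 and 12.6 CPM over all 15 libraries, with line means of 9.06 to 10.6, and no comparison between lines was called. Opposite-strand exons of EMILIN3 overlap 13.5% of its exonic bases.

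Within the lipins, the LPIN1 and LPIN2 shares of the Scramble libraries lay apart from those of every other library. Per kilobase, LPIN1 gave 57.6%, 58.9% and 54.9% of the lipin sum in the Scramble libraries and 50.3%, 51.9% and 49.3% in KO. The same share was 44.9%, 46.7% and 48.5% for KO_WT, 49.0%, 46.8% and 48.1% for KO_S47A, and 42.7%, 45.0% and 45.1% for KO_S404A. LPIN2 gave 30.7%, 30.4% and 30.5% in Scramble and between 35.3% and 44.8% in the other 12 libraries. No library of another line reached the Scramble range for either share. The LPIN3 share overlapped, at 10.7% to 14.5% in Scramble and 10.2% to 16.2% over all libraries. A share compares 2 RNAs within a library, so library scaling does not enter it, and a higher share of one gene lowers the others. No test was run on the shares, and how often shares of other genes lie apart in this way was not counted. For the levels of single genes, library ranges did not overlap for 18.2% to 25.0% of all genes tested in the comparisons with Scramble. The sum of the 3 lipins was 19.6 ± 0.782 CPM per kilobase in Scramble, against 18.3 ± 2.38 for KO, 15.9 ± 1.73 for KO_WT, 16.98 ± 0.483 for KO_S47A and 18.0 ± 1.54 for KO_S404A.

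DGAT1 and DGAT2 encode unrelated enzymes for the last step, and they behaved differently. DGAT1 was as steady as GPAM: line means were 23.4 ± 1.27 CPM in Scramble, against 23.7 ± 2.33 for KO, 24.8 ± 1.25 for KO_WT, 24.6 ± 2.11 for KO_S47A and 24.4 ± 0.963 for KO_S404A. The KO minus Scramble difference was 0.02, with a 95% interval of -0.19 to 0.23. DGAT2 stood at 22.6, 19.96 and 30.2 CPM in Scramble and at 26.5, 28.5 and 29.5 in KO. The addback libraries gave 20.2, 23.3 and 28.8 CPM for KO_WT, 14.9, 15.6 and 28.3 for KO_S47A, and 20.3, 24.2 and 32.9 for KO_S404A. Library 3 was the highest in each line, and KO_S47A libraries 1 and 2 were the lowest of all 15. Against Scramble no DGAT2 difference was called (KO 0.22, 95% interval -0.31 to 0.75; KO_S47A -0.31, -0.84 to 0.22). From libraries 1 and 2 alone, the KO_S47A difference from Scramble was called for DGAT2 (-0.48, adjusted p = 0.0278) and also for AGPAT5 (-0.42, adjusted p = 0.0176). That fit called 15.0% of all genes, against 3.82% with all libraries. DGAT2 held 60.7 ± 4.26% of the DGAT sum per kilobase in Scramble, 64.2 ± 2.47% in KO and 53.5 ± 7.01% in KO_S47A.

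**Figure D3:**
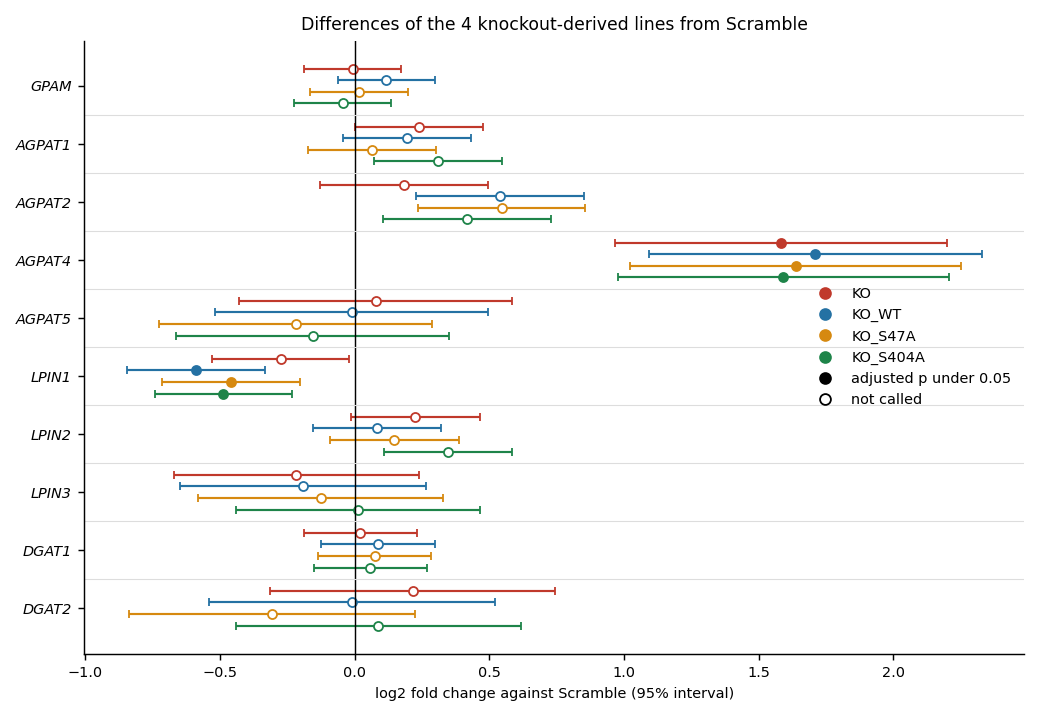
Difference of KO and of each addback line from Scramble (horizontal axis, log2 fold change with its 95% interval) for the 10 genes. Filled points passed the adjusted p of 0.05: all 4 for AGPAT4, at 1.58 to 1.71, and the 3 addback lines for LPIN1, at -0.59 to -0.46, and the 4 comparisons share the Scramble libraries.

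Counted over the 10 genes, 1 was called between KO and Scramble (AGPAT4, higher), where 2.69% of all genes tested were called. Of all genes 0.969% were called higher there and 1.72% lower. Against Scramble, 2 of the 10 were called in each addback line, AGPAT4 higher and LPIN1 lower. The background was 3.47% for KO_WT (1.51% higher, 1.96% lower), 3.82% for KO_S47A (1.59% and 2.23%) and 3.11% for KO_S404A (1.34% and 1.77%). With the replicate number as a block, 1, 3 and 3 genes were called in the first 3 of these comparisons, beside 8.29%, 10.0% and 19.5% of all genes. Whether same-numbered libraries belong together is not shown: in no comparison did every library correlate best with its own number. At an unadjusted p under 0.05 the counts in the 4 comparisons were 3, 3, 3 and 5. The share of all genes under that limit was not counted, so these counts have no background to be read against. Library ranges did not overlap for 2 of the 10 genes between KO and Scramble (20.7% of all genes tested), 4 in KO_WT (23.1%), 4 in KO_S47A (25.0%) and 5 in KO_S404A (18.2%). The median log2 difference of the 10 genes was 0.13, 0.08, 0.04 and 0.07 in the 4 comparisons, against 0.02, 0.01, 0.02 and 0.03 over all genes tested. These 4 comparisons share the Scramble libraries, so a library of that line moves all 4.

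Whether ATGL, or which ATGL protein, altered these genes in the knockout is the question of the other comparisons. None of the 10 genes was called between KO_WT and KO (background 0.0281%), KO_S47A and KO (0.00702%) or KO_S404A and KO (0.0211%) by edgeR, and the KO libraries are shared by all 3. At an unadjusted p under 0.05 the counts were 2, 1 and 0, with the share of all genes not counted. DESeq2 called 0 in each, beside 0.0562%, 0.232% and 0.0562% of all genes. Between the addback lines the count was also 0 for KO_WT minus KO_S47A (background 0%), KO_S404A minus KO_S47A (0.00702%) and KO_S404A minus KO_WT (0%), and 0 by DESeq2. At an unadjusted p under 0.05 it was 0, 1 and 1, again with the share of all genes not counted. Library ranges did not overlap for 0, 2 and 0 of the 10 genes in the 3 comparisons with KO (15.5%, 21.9% and 6.84% of all genes tested), and for 1, 1 and 2 between the addback lines in the order given (5.69%, 7.01% and 10.0%). Between addback lines, PNPLA2 itself was called between KO_S404A and KO_S47A only. Its mean level was 220 CPM in KO_WT, 129 in KO_S47A and 413 in KO_S404A, against 48.9 in Scramble. Each addback protein thus comes with its own PNPLA2 level, above that of the control. Which protein is present and how much of its RNA cannot be told apart here. The 10 log2 differences between KO_WT and KO_S47A ran from -0.13 for LPIN1 (95% interval -0.39 to 0.13) to 0.30 for DGAT2 (-0.23 to 0.83), and those between KO_S404A and KO_WT from -0.16 for GPAM (-0.34 to 0.02) to 0.26 for LPIN2 (0.02 to 0.50, adjusted p = 0.555).

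In KO_S47A against KO, 3 genes were called once the replicate number was in the model, where 22.1% of all genes were called. DGAT2 had a difference of -0.52 without the block (SE 0.25, adjusted p = 0.301) and -0.58 with it (SE 0.13, adjusted p = 0.00823). Its KO_S47A level was 0.563, 0.549 and 0.957 times that of KO in libraries 1, 2 and 3, so that the difference lay in libraries 1 and 2. AGPAT5 had a difference of -0.30 without the block (adjusted p = 0.471) and -0.33 with it (adjusted p = 0.0271), at 0.776, 0.662 and 0.963 times KO. AGPAT2 was higher by 0.36 in both fits (adjusted p = 0.277 and, with the block, 0.0078), at 1.27, 1.29 and 1.29 times KO. From libraries 1 and 2 alone, the DGAT2 difference was -0.85 (adjusted p = 0.00197) and that of AGPAT5 was -0.48 (adjusted p = 0.00645), where 21.6% of all genes were called.

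Library number 3 differed from numbers 1 and 2 for 4 of the 10 genes, in a fit with line and number as terms that called 45.3% of all genes tested. The labels give the number only and do not say what libraries with the same number share. AGPAT5 was higher in library 3 by 0.52 (SE 0.06, adjusted p = 1.66e-05) and DGAT2 by 0.50 (SE 0.09, adjusted p = 0.000263), each the highest of the 3 libraries in 5 of 5 lines, where 22.2% of all genes were called higher and 23.1% lower. LPIN3 was higher by 0.30 (SE 0.11, adjusted p = 0.0362), and its call was lost without the Scramble line (adjusted p = 0.0995), the KO_WT line (0.198) or the KO_S47A line (0.0653). AGPAT2 was lower by 0.30 (difference -0.30, SE 0.05, adjusted p = 0.000413) and the lowest in 5 of 5 lines. LPIN1 (0.00, 95% interval -0.16 to 0.17) and AGPAT4 (0.07, -0.32 to 0.46) were not called. AGPAT5 and DGAT2 had the highest correlation among the 45 pairs of the 10 genes (r = 0.89 over the 15 libraries, as a description of libraries that share lines and numbers), and AGPAT1 and LPIN2 the next (r = 0.77).

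**Figure D4:**
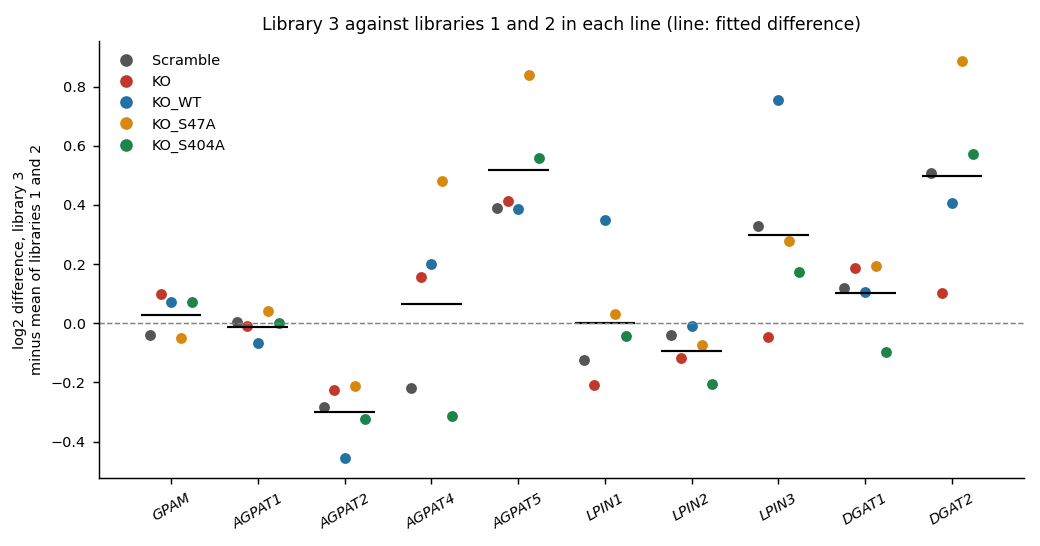
Library 3 minus the mean of libraries 1 and 2 (vertical axis, log2 CPM) in each of the 5 lines (coloured points), with the fitted difference as a short line, for the 10 genes. AGPAT5 and DGAT2 lie above 0 in all 5 lines, AGPAT2 lies below 0 in all 5, and LPIN1 and AGPAT4 fall on both sides.

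The wider pathway was counted from 6 further lists, 67 genes of which 62 passed the filter. None of 6 other enzymes of the same steps, 8 lipin regulators and droplet assembly genes, or 8 lysophospholipid acyltransferases was called in any of the 10 comparisons between lines, and no gene of any of the 6 lists was called in the 6 comparisons without Scramble. Those 6 comparisons called 0% to 0.0281% of all genes tested, so a count of 0 says little there. The comparisons with Scramble called 2.69% to 3.82%. At the phospholipid branches 1 of 23 genes was called in each of 3 comparisons with Scramble (KO, KO_WT and KO_S47A), a share near that of all genes tested (2.69%, 3.47% and 3.82%). CDS1, which turns phosphatidic acid into CDP-diacylglycerol and so draws on the lipin substrate, fell from 50.1 ± 3.43 CPM in Scramble to 39.4 ± 0.110 in KO (log2 difference -0.35, adjusted p = 0.0396) and 40.0 ± 0.884 in KO_S47A (-0.32, adjusted p = 0.0443). DGKQ, a kinase that turns diacylglycerol back into phosphatidic acid, fell from 52.2 ± 2.19 to 40.2 ± 1.73 CPM in KO_WT (-0.38, adjusted p = 0.0297). Each of these calls was lost when only the 2 lines compared were fitted (adjusted p = 0.0611, 0.102 and 0.0599). Both CDS1 calls were lost in 9 of 13 alternatives and the DGKQ call in 8 of 13. All were lost when any 1 library of the lines compared was left out (edgeR adjusted p of 0.0569 or more).

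Among 8 precursor supply genes, ACSL5, an acyl-CoA synthetase, rose from 0.443 to 1.11 CPM in KO_S47A (1.32, adjusted p = 0.0447), and the other 7 were not called. ACSL5 had few counts, 664 over the 15 libraries. Of all genes tested, 3.82% were called in KO_S47A minus Scramble and 3.47% in KO_WT minus Scramble. Of 9 transcriptional regulators, TFEB fell in KO_WT (-0.54, adjusted p = 0.0404) and KO_S47A (-0.60, adjusted p = 0.0238). It encodes a regulator of lysosomal and lipid breakdown genes, and it went from 10.4 CPM in Scramble to 7.10 and 6.82. SREBF2, the regulator of cholesterol synthesis genes, fell in KO_WT from 234 ± 39.8 to 145 ± 22.7 CPM (-0.69, adjusted p = 0.0499). In the fit of the 2 lines alone these 4 calls were lost (adjusted p = 0.117 for ACSL5, 0.128 and 0.0778 for TFEB, and 0.0834 for SREBF2). Of 13 alternatives, the ACSL5 call was lost in 8, the TFEB calls in 7 (KO_WT) and 5 (KO_S47A), and the SREBF2 call in 6. In library 3 against 1 and 2, where 22.2% of all genes were called higher and 23.1% lower, GPAT4 (0.28, adjusted p = 0.000561) and LCLAT1 (0.28, adjusted p = 0.000572) rose among the 6 other enzymes, and 5 of 8 lysophospholipid acyltransferases rose and none fell, led by LPCAT3 (0.35, adjusted p = 4.78e-05), LPCAT1 (0.23, adjusted p = 0.00159) and MBOAT7 (0.29, adjusted p = 0.00397). Of the regulators 1 rose and 5 fell, SREBF2 (-0.40), PPARG (-0.70) and NR1H2 (-0.37) with the smallest adjusted p-values. Of the other lists, 3 of 8 precursor supply genes rose and 1 fell, 6 of 23 phospholipid genes rose and 4 fell, which is near the share over all genes, and 1 of 8 lipin regulators and droplet assembly genes, HILPDA, rose (0.67, adjusted p = 8.37e-06).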

How the data were processed

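RNA was column-purified, poly(A)-selected and made into directional libraries, per the labels' protocols; the submitters' processing notes name CASAVA and STAR, with no version. Each deposited table gives, from the authors, a raw count and a length-scaled estimate (FPKM) per gene; the sources used here do not give the genome build, annotation release or strand setting. The FPKM values served only to obtain the transcript length used per kilobase. Between 13.2% and 20.6% of the counts of a library lay in 5 entries that name no gene and were left out.

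Counts were scaled by TMM and fitted over all 15 libraries with the edgeR 4.0.16 quasi-likelihood test (R 4.3.3, 1 mean per line, 10 residual degrees of freedom, genes kept by filterByExpr), with Benjamini-Hochberg adjustment over all 14246 genes tested and a call at an adjusted p under 0.05. The median 95% half-width over genes was 0.36 on the log2 scale, and libraries of a line differed beyond counting noise (chi-square per degree of freedom 8.11 to 239). Standard errors are the difference over the square root of F. The fit was also run on simulated counts with the same spread for every gene and no effect of library number. That setting is quieter than these libraries, so it says little about the calls given here. Alternatives were other size factors (RLE), no filter, DESeq2 1.42.0, the replicate number as a block, libraries 1 and 2 only, the 2 lines alone, and leaving out each library. The correlation of same-numbered libraries' deviations from their line means ran from 0.0197 to 0.675. It exceeded 0.1 for all 3 numbers in 8 of 10 comparisons, not in KO_S404A minus Scramble or KO_S404A minus KO. A shift of library 3 shared by the lines also raises these correlations, so they do not show that libraries 1 and 2 are paired by number.

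All 10 genes are named, with up to 3 called genes with the smallest adjusted p per pathway list and comparison, and the 3 genes most like each member called among the 5 lines (mean of at least 1 CPM), of which 1 is not reported here. The genes, lists and markers were chosen with earlier results of these data known. MOGAT1, MOGAT3, PCYT1B and CHKB did not pass the filter, and SREBF1 stands on 2 entries and was left out. Promoter windows are from the RefSeq table of GRCh38.p14, gene overlaps from GENCODE v29.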

Additional observations from a re-analysis of the deposited data

How the results depend on the processing

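Over 120 pairs of a gene and a comparison, 100 gained or lost no call under any alternative, and no called difference reversed in sign; 99 of 1590 alternative values changed the sign of a difference that was not called. Of the 10 genes, the count called among the 5 lines was 1, beside 2.37% of all genes tested. It was 2 with RLE size factors (2.53% of all genes), 3 with DESeq2 (7.55%) and 4 with the replicate block (22.9%). From libraries 1 and 2 only it was 5 (17.5%), and it was 0 to 2 when each library was left out in turn (0.979% to 3.71%). In KO_S404A minus Scramble, 2 genes became 4 with the replicate block (AGPAT2, adjusted p = 0.00402, and LPIN2, 0.0429, added), beside 10.7% of all genes. The count was 0 in the fit of the 2 lines only (0.980%) and 1 to 2 leaving out each library (1.65% to 2.59%). In KO_S404A minus KO the replicate block called 0, as before. In those 2 comparisons the correlation of same-numbered libraries did not exceed 0.1 for all 3 numbers. In none of the 10 comparisons did every library correlate best with its own number. In KO_S47A minus KO, 0 genes became 3 with the replicate block (22.1% of all genes) and 3 from libraries 1 and 2 only (21.6%). In KO_S47A minus Scramble, 2 became 5 from libraries 1 and 2 only (AGPAT2, AGPAT5 and DGAT2 added), beside 15.0% of all genes. Leaving out each library gave 1 to 3 there (1.62% to 6.78%). In KO_WT minus Scramble the count was 1 in the fit of the 2 lines only (2.52%) and 1 to 3 leaving out each library (1.65% to 3.04%). A replicate block without KO_S404A library 2, chosen after seeing the data, gave 4 among the 5 lines (26.0% of all genes). It gave 3 in KO_S47A minus KO (26.6%) and 1 in KO_WT minus KO (4.27%), which was AGPAT2 (adjusted p = 0.0422). The replicate block also called AGPAT2 in KO_WT minus Scramble (2 genes became 3, beside 10.0% of all genes) and in KO_S47A minus Scramble (2 became 3, beside 19.5%). The block changed no further call of the 10 genes in the 10 comparisons between lines. Over all genes, called counts for KO minus Scramble were 383 as reported, 1181 with the replicate block and 693 with DESeq2, and for KO_S47A minus KO 1, 3150 and 33. The cause of these changes was not tested, beyond the smaller number of libraries where some were left out. AGPAT4 rests on 36 to 38 counts in each Scramble library, which limits its precision.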
